A study of Homo sapiens with 4 samples.

Results

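A set of 10 genes outside the HOX clusters that are known direct targets of MLL fusion proteins was followed through the peak lists of WDR5 and H3K4me3: MEIS1, PBX3, MEF2C, CDK6, JMJD1C, MYB, ZEB2, FLT3, EYA1 and MYC. Their peaks were the entries whose gene symbol was one of these names, which gave 3 of 703 WDR5 peaks in RS4;11 cells, 0 of 225 WDR5 peaks in THP-1 cells, 11 of 24212 H3K4me3 peaks of RS4;11 and 38 of 26523 of THP-1 cells. Of the 10 genes, 9 had a peak in at least 1 list, and MYB had none. The lists name 18576 gene symbols in all.

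The data are ChIP-seq of WDR5 (antibody ab56919) and of trimethylated lysine 4 of histone H3 (antibody ab8580) from human leukemia cell lines, with no treatment named in the labels. RS4;11 is a B-cell precursor line that carries an MLL-AF4 fusion, and THP-1 is a monocytic line that carries an MLL-AF9 fusion. There was 1 sample for each antibody in each line and no replicate, so no difference between the lines could be set against the spread between cultures, and no test was made. Each line stems from 1 patient, so the fusion partner, the lineage and the patient cannot be told apart. The labels call both WDR5 samples lymphoblastic and both H3K4me3 samples myeloid, so the type given for the WDR5 sample of THP-1 cells and for the H3K4me3 sample of RS4;11 cells is not the usual type of that line, and samples were grouped by the name of the line. The lists give positions without reads or peak heights, so the depth is unknown. A gene without a listed peak is not shown to lack the mark. Peaks far from every transcript are not in the lists, so each distance to a nearest peak is an upper limit.

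MLL (KMT2A) is a methyltransferase of lysine 4 of histone H3, and WDR5 is a shared subunit of the complexes in which MLL works. H3K4me3 usually marks the start sites of active genes, most of all those rich in CpG. MLL fusions keep the amino-terminal part of MLL with its CXXC domain, which binds unmethylated CpG, lose the methyltransferase domain, and keep a small set of progenitor genes active, among them HOXA genes and the genes described here.

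WDR5 peaks were listed for MEIS1, CDK6 and JMJD1C in RS4;11 cells, 3 of the 10 genes, where 4.02% of 20136 protein-coding genes had one. In THP-1 cells 0 of the 10 genes had a WDR5 peak, against 1.35% of protein-coding genes. MEIS1, CDK6 and JMJD1C are long, with 140418, 231653 and 354630 bp, against a median of 27217 bp over protein-coding genes. Peaks were taken over the whole gene and its flanks. The share with a WDR5 peak among genes of like length was not computed. The MEIS1 peak (hg19, chr2:66669536-66669856, 321 bp) lies in an intron, with its center 9112 bp into the gene from its 5′ end and 211 bp upstream of the nearest annotated start of a MEIS1 transcript. The CDK6 peak (chr7:92418627-92418972, 346 bp) lies in an intron, 47088 bp downstream of the 5′ end. The JMJD1C peak (chr10:65229063-65229508, 446 bp) carries the upstream flag of a shorter transcript in the authors' annotation and lies in an intron of the longer gene model, 52325 bp from its 5′ end and 3548 bp upstream of the nearest start. Thus none of the 3 peaks lay over a start site. Of all 703 WDR5 peaks of RS4;11 cells, only 3.98% lay over an annotated start of any gene. The 3 peaks were away from listed H3K4me3 peaks of the same line, by 8665 bp at CDK6, 31484 bp at JMJD1C and 954070 bp at MEIS1. The share of all WDR5 peaks that lie away from H3K4me3 peaks was not computed. The nearest listed WDR5 peaks of THP-1 cells were 6868200 bp, 5361824 bp and 9200328 bp away from the MEIS1, CDK6 and JMJD1C peaks. That list holds only 225 peaks, and 1.85% of all WDR5 peaks of RS4;11 cells overlapped one of them. For the other members the nearest listed WDR5 peak of RS4;11 cells was between 367395 bp (MYB) and 7289975 bp (ZEB2) from the gene.

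The central 300 bases of the 3 WDR5 peaks are shown because they are the WDR5 sites of this gene set, with every CpG in capitals, on the plus strand of hg19. They span chr2:66669547-66669846, chr7:92418650-92418949 and chr10:65229136-65229435.
MEIS1: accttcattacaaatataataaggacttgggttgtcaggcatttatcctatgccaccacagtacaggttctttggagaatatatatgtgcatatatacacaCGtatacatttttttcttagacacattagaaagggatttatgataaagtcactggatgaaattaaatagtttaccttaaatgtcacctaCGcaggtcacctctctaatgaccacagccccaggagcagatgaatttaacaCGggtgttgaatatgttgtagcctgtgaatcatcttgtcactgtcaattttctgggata
CDK6: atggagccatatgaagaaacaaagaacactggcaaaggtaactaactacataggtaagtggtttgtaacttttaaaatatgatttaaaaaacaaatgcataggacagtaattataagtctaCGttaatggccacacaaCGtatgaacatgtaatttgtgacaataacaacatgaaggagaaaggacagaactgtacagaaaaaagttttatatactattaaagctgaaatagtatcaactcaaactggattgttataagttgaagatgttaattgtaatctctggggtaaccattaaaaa
JMJD1C: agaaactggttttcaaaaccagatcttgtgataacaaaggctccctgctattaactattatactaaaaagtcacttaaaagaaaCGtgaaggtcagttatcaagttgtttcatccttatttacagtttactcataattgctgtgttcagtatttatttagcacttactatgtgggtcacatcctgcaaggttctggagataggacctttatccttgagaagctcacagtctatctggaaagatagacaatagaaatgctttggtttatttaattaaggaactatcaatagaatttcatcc
The windows hold 3, 2 and 1 CpG (the letters CG, which read the same on both strands). The median over 699 windows of the same length at the centers of WDR5 peaks of RS4;11 cells was 2, and 83.4% of these windows held at least 1. The 3 peaks had a GC content of 35.8%, 30.3% and 30.9%, where the median of all WDR5 peaks of RS4;11 cells was 40.3%. Their ratios of observed to expected CpG were 0.291, 0.258 and 0.188, above the median of 0.179 over those peaks.

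H3K4me3 peaks were listed for 6 of the 10 genes in RS4;11 cells, against 72.8% of protein-coding genes, and for 9 of the 10 in THP-1 cells, against 77.6%. The 11 peaks of RS4;11 cells covered 19125 bp and the 38 peaks of THP-1 cells covered 54562 bp. MEIS1, ZEB2 and FLT3 had peaks in THP-1 cells only, MYB had none in either line, and no member had a peak in RS4;11 cells only. The map of the 10 genes shows where these peaks lie.

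**Figure D1:**
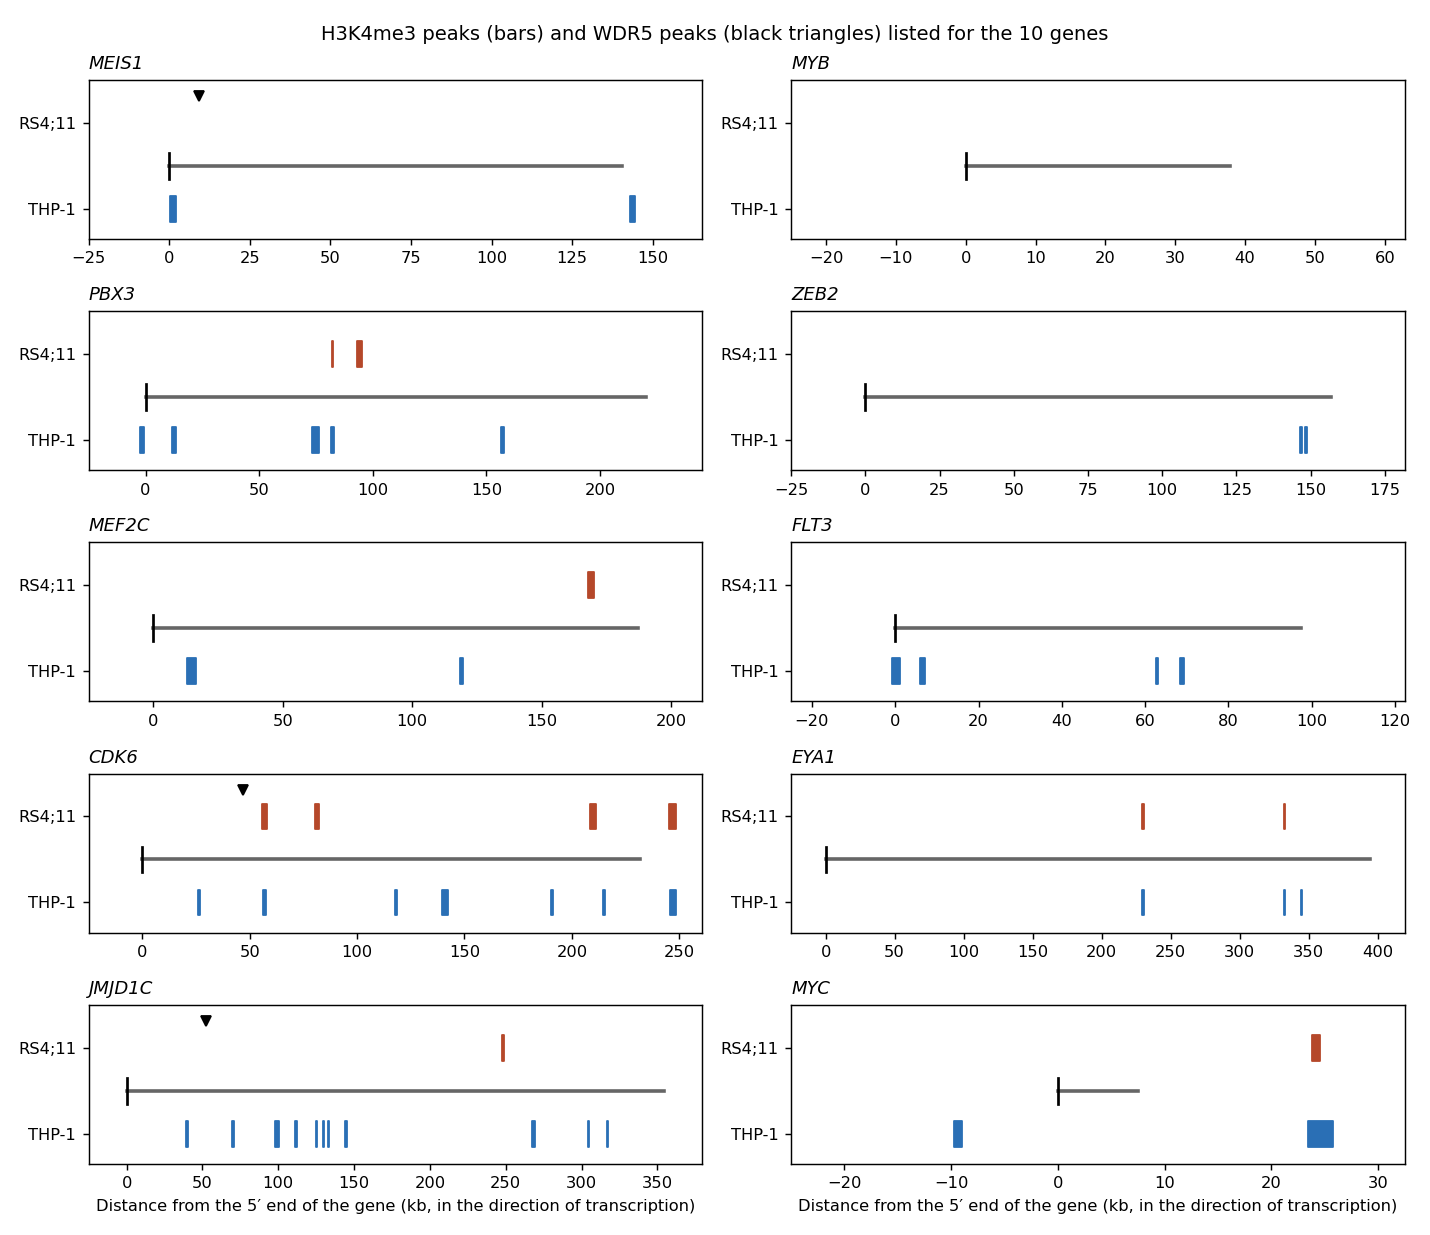
Listed peaks of each gene along its own length. The x axis is the distance from the 5′ end of the gene in kb in the direction of transcription, the gray line is the gene, red bars are H3K4me3 peaks of RS4;11 cells (11 in all), blue bars those of THP-1 cells (38 in all), and black triangles the 3 WDR5 peaks of RS4;11 cells, and of all bars only 1 in the FLT3 panel crosses the 5′ end.

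MEIS1 and its partner PBX3 encode homeodomain proteins of the TALE class that bind DNA together with HOX proteins. MEIS1 (ENSG00000143995, chr2:66660584-66801001, plus strand) had 0 H3K4me3 peaks in RS4;11 and 2 in THP-1 cells, with 3565 bp. The first of them (chr2:66660726-66662775, 2050 bp) begins 142 bp downstream of the 5′ end, covers 4 annotated starts of MEIS1 and overlaps an exon. The other (chr2:66803554-66805068, 1515 bp) lies downstream of the gene. In RS4;11 cells the nearest H3K4me3 peak to the MEIS1 start was 963342 bp away and was listed for ETAA1. MEIS1 was therefore the gene with a WDR5 peak but no H3K4me3 peak in RS4;11 cells, and with H3K4me3 peaks but no WDR5 peak in THP-1 cells.

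PBX3 (ENSG00000167081, chr9:128509624-128729656, plus strand) had 2 H3K4me3 peaks with 2537 bp in RS4;11 and 5 with 9403 bp in THP-1 cells, a ratio of 3.71. The THP-1 peak closest to the start (chr9:128507386-128509091, 1706 bp) ends 533 bp upstream of it and covers the start of the divergent transcript PBX3-DT. The other 4 THP-1 peaks lie in introns, from 12437 to 156924 bp downstream of the 5′ end by their centers. One intronic position was listed in both lines, with 430 bp (chr9:128591885-128592314) in RS4;11 cells inside 1364 bp (chr9:128591310-128592673) in THP-1 cells. No start of PBX3 itself was covered in either line.

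The bases just upstream of the starts of MEIS1 and FLT3 are shown because these starts lay beside or under a THP-1 peak and far from any peak of RS4;11 cells. FLT3 encodes a receptor tyrosine kinase of blood progenitors. The stretches are chr2:66660284-66660583 on the plus strand and chr13:28674730-28675029 on the minus strand of hg19, each 300 bases long and written 5′ to 3′ toward the gene, with every CpG in capitals.
MEIS1: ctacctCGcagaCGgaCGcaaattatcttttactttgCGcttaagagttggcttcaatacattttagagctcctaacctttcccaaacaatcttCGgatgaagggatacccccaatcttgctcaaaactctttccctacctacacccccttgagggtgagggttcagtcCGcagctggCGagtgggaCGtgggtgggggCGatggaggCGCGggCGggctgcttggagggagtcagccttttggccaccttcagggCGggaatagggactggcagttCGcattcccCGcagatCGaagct
FLT3: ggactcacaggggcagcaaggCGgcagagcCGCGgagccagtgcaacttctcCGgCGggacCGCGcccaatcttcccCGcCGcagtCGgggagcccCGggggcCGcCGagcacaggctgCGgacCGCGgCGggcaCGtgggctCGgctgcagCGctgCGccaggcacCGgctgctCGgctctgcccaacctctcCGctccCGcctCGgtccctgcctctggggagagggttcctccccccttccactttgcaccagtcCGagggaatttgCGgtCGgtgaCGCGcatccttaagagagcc
They hold 16 and 31 CpG, where the median over the same stretch of 20136 protein-coding genes was 16. The FLT3 stretch lies wholly under the THP-1 peak, and the MEIS1 stretch ends before its peak begins.

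FLT3 (ENSG00000122025, chr13:28577411-28674729, minus strand) had 0 H3K4me3 peaks in RS4;11 and 4 with 4894 bp in THP-1 cells. It was the only one of the 10 genes whose 5′ end was covered in THP-1 cells, by a peak of 1949 bp (chr13:28673557-28675505) over 2 of its 3 annotated starts. The other 3 peaks lie in introns, with centers 6473, 62833 and 68823 bp downstream of the 5′ end. In RS4;11 cells the nearest H3K4me3 peak to the FLT3 start was 138839 bp away and was listed for CDX2 and its neighbors. CDK6, the other kinase of the set, drives entry into the cell cycle with D-type cyclins. CDK6 (ENSG00000105810, chr7:92234235-92465887, minus strand) had 4 peaks with 10227 bp in RS4;11 and 7 with 10410 bp in THP-1 cells, a ratio of 1.02. The bases were thus nearly equal although the numbers of peaks were not. One of its peaks (chr7:92217503-92220443 in RS4;11 cells, chr7:92217566-92220364 in THP-1 cells) covers the start of the neighbor FAM133B downstream of CDK6. A second shared peak lies in an intron (chr7:92407793-92409962 and chr7:92408260-92409513), and the WDR5 peak of RS4;11 cells lies 8665 bp from it. The remaining 2 peaks of RS4;11 cells and 5 of THP-1 cells lie in introns and overlap no peak of the other line. No annotated start of CDK6 was covered, and the nearest peaks to its 5′ end were 55925 bp away in RS4;11 and 25805 bp away in THP-1 cells.

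JMJD1C, a member of the JmjC family of histone demethylases, had the largest ratio among the 6 genes with peaks in both lines. JMJD1C (ENSG00000171988, chr10:64926981-65281610, minus strand) had 1 peak with 955 bp in RS4;11 cells (chr10:65033012-65033966) and 11 with 13736 bp in THP-1 cells, a ratio of 14.4. Only 34 of 20136 protein-coding genes had more peaks in THP-1 cells, and 0.253% had as many or more. The gene is long, and per length it had 0.282 peaks per 100 kb in RS4;11 and 3.10 in THP-1 cells. The THP-1 peaks were between 665 and 2823 bp wide and spread from 39847 to 316945 bp downstream of the 5′ end. By the gene models 10 of them lie in introns and 1 overlaps an exon, and none covers a start of JMJD1C. None overlapped the peak of RS4;11 cells. Counted by overlap with the gene model in place of the symbol, there were 2 peaks in RS4;11 and 14 in THP-1 cells. These covered 2878 and 18049 bp, so the ratio of 14.4 depends on the symbol and was well below that by the gene model. Peaks within 1 Mb outside the gene numbered 9 and 11, and those of the whole chromosome 1142 and 1073, so the surroundings did not share the ratio of the gene.

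**Figure D2:**
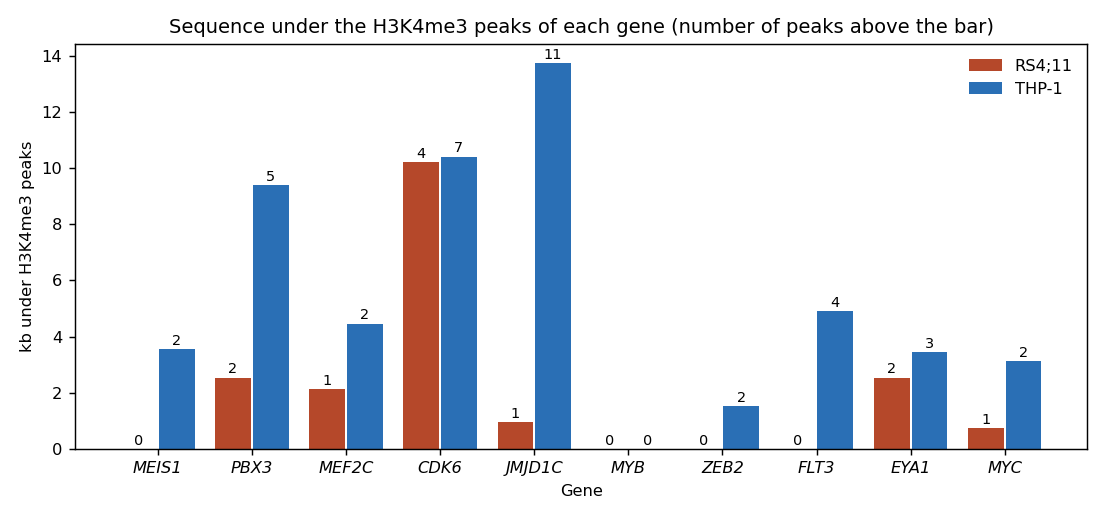
Sequence under the listed H3K4me3 peaks of each gene, in kb, with RS4;11 cells in red and THP-1 cells in blue and the number of peaks above each bar. CDK6 is nearly equal (10227 and 10410 bp), JMJD1C differs most (955 and 13736 bp), and MYB is at 0 in both lines, with 1 sample behind each bar.

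MEF2C, MYB, ZEB2, EYA1 and MYC are regulators of transcription. MEF2C is a MADS-box factor of lymphoid and myeloid progenitors. MEF2C (ENSG00000081189, chr5:88012934-88200074, minus strand) had 1 peak with 2122 bp in RS4;11 and 2 with 4463 bp in THP-1 cells, a ratio of 2.10. The THP-1 peak of 3365 bp (chr5:88183779-88187143), the widest of the 38, covers 5 annotated starts of MEF2C and the start of MEF2C-AS1, with its center 14613 bp inside the 5′ end. The other THP-1 peak (chr5:88080528-88081625) covers 2 further starts. The peak of RS4;11 cells (chr5:88029838-88031959) lies in an intron near the 3′ end and covers no start.

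MYB, a factor that progenitors need for self-renewal, had no listed peak of either antibody in either line. The nearest H3K4me3 peaks to the MYB start (ENSG00000118513, chr6:135502446-135540311, plus strand) were 99089 bp away in RS4;11 and 125011 bp away in THP-1 cells, and both were listed for AHI1. The region was not empty, since 15 and 18 H3K4me3 peaks were listed within 1 Mb outside the gene. ZEB2 is a zinc finger repressor of blood progenitors. ZEB2 (ENSG00000169554, chr2:145121931-145278624, minus strand) had 0 peaks in RS4;11 and 2 in THP-1 cells, of 762 and 755 bp (chr2:145129881-145130642 and chr2:145131590-145132344). The authors' flags place both downstream of ZEB2, and the gene model used here, whose 3′ end reaches farther, places them in an intron, 146280 bp or more from the 5′ end.

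EYA1 is a phosphatase and transcriptional coactivator of embryonic organ formation. EYA1 (ENSG00000104313, chr8:72109668-72504260, minus strand) had 2 peaks with 2538 bp in RS4;11 and 3 with 3455 bp in THP-1 cells, a ratio of 1.36. Both of its RS4;11 peaks had a partner in THP-1 cells. Peaks of 1733 bp (chr8:72273355-72275087) and 1750 bp (chr8:72273299-72275048) shared 1694 bp and covered the same 5 annotated starts, and their centers lie 230039 and 230087 bp inside the 5′ end of the gene model. A second shared position had 805 bp in RS4;11 and 920 bp in THP-1 cells. MYC, a growth regulator whose gene spans only 7518 bp (ENSG00000136997, chr8:128747680-128755197, plus strand), had 1 peak with 746 bp in RS4;11 and 2 with 3119 bp in THP-1 cells, a ratio of 4.18. The peaks lay only in the flanks. The downstream position was shared (chr8:128771464-128772209 and chr8:128771134-128773476), and the upstream peak (chr8:128737921-128738696) was in THP-1 cells only. The nearest peak to the MYC start was 23784 bp away in RS4;11 and 8984 bp away in THP-1 cells.

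Between the lines, 7 of the 9 genes with a peak had at least 2-fold more bases under H3K4me3 peaks in THP-1 cells, counting the 3 that are listed at 0 in RS4;11 cells. Of 16431 protein-coding genes with a peak in either line, 19.2% did. At least 2-fold more in RS4;11 cells was found for 0 of the 9, against 13% of those genes. Nearest to this limit were MEF2C inside it, with a ratio of 2.10, and EYA1 outside it, with 1.36. Over whole chromosomes the numbers of listed peaks in THP-1 cells were 0.940 to 1.21 times those in RS4;11 cells, over the chromosomes of these genes. Peaks within 1 Mb outside the gene were outside that range at 6 genes. They were more in THP-1 cells at EYA1 (5 in RS4;11 and 17 in THP-1 cells), MYC (8 and 12), ZEB2 (2 and 3), MEIS1 (3 and 4) and JMJD1C (9 and 11), and fewer at CDK6 (15 and 12). These counts include peaks in the flanks that are listed for the gene itself, at MEIS1, MYC, PBX3 and CDK6. At MEIS1 and MYC the surroundings are therefore not separate from the gene. The surroundings of EYA1, ZEB2 and JMJD1C leaned the way of the gene, on small numbers, and at JMJD1C far less than the gene itself. At PBX3 (39 and 37), MEF2C (4 and 4), MYB (15 and 18) and FLT3 (22 and 25) the counts around the gene were within the range of the chromosomes.

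The peaks of these genes were also compared between the lines by overlap. Of the 11 peaks of RS4;11 cells, 6 overlapped a THP-1 peak by at least 1 bp, which is 54.5% (exact 95% interval 23.4 to 83.3%), against 55.8% of all H3K4me3 peaks of RS4;11 cells. Of the 38 peaks of THP-1 cells, 6 overlapped a peak of RS4;11 cells, which is 15.8% (6.02 to 31.3%), against 51.8% of all. With 11 listed peaks in RS4;11 cells, few of the 38 could have a partner. The lower share in THP-1 cells thus mostly restates the 2 numbers of peaks. The intervals cover counting error over peaks only, and peaks of 1 gene are not independent. The shared positions belong to PBX3 (1), CDK6 (2), EYA1 (2) and MYC (1), and the 11 peaks of JMJD1C, the 4 of FLT3 and the 2 each of MEIS1, MEF2C and ZEB2 in THP-1 cells are all among those without a partner.

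At the start sites, 0 of the 10 genes had an H3K4me3 peak over the 5′ end in RS4;11 cells and 1, FLT3, in THP-1 cells, against 45.7% and 48.5% of protein-coding genes. Counting a peak over any annotated start of the gene gave 1 gene (EYA1) in RS4;11 cells and 4 (MEIS1, MEF2C, FLT3 and EYA1) in THP-1 cells, against 53.4% and 59.2%. Counting a peak with both the upstream and the exon flag of the authors for the same transcript gave 1 (EYA1) and 3 (MEIS1, FLT3 and EYA1), against 46.7% and 50.2%. By each of the 3 counts the share of these genes was below that of all protein-coding genes in both lines. The median distance from the 5′ end to the nearest peak was 118964 bp in RS4;11 cells, against 1425.5 bp over all protein-coding genes, and 10957.5 bp in THP-1 cells, against 71 bp. The 5′ end here is the outermost end of the gene model. Measured from any annotated start, the distance in RS4;11 cells was shorter for every one of the 10 genes. It was 0 bp at EYA1, 1033 bp at PBX3 and 2194 bp at MEF2C. Distances from any annotated start were not computed for all genes.

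**Figure D3:**
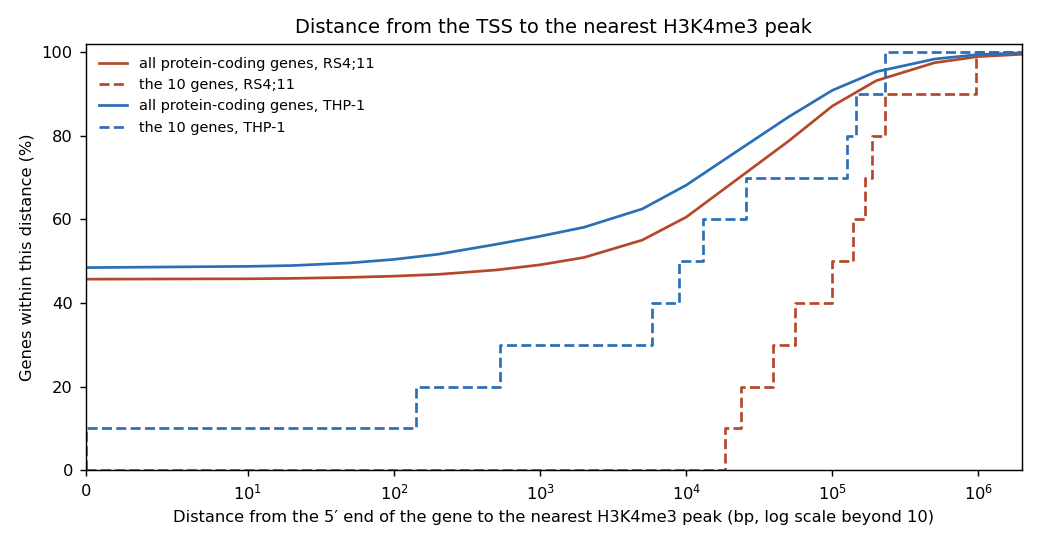
Share of genes (%, y axis) whose 5′ end lies within a given distance (bp, x axis, log scale beyond 10) of the nearest H3K4me3 peak, with solid lines for 20136 protein-coding genes and dashed lines for the 10 genes. The 5′ end is the outermost end of the gene model. The dashed red line of RS4;11 cells stays at 0 until 18491 bp, and the dashed blue line of THP-1 cells begins at 1 gene and reaches 5 genes within 10000 bp.

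This held for starts rich in CpG as well. PBX3, JMJD1C, MYB, CDK6 and FLT3 have 61, 42, 42, 33 and 31 CpG in the 300 bp upstream of the 5′ end. Of 3794 protein-coding genes with at least 30, 63.4% had a peak over the start in RS4;11 and 61.8% in THP-1 cells, and of these 5 genes 0 and 1 did. The other 5 genes have 16 (MEIS1), 10 (MYC), 3 (MEF2C), 3 (ZEB2) and 2 (EYA1).

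A missing peak at a start was not limited to this gene set. Of 10 genes that most cells express, among them ACTB and GAPDH, 4 had a peak over the 5′ end in RS4;11 and 3 in THP-1 cells. The shares of all protein-coding genes were 45.7% and 48.5%. In each line 9 of the 10 had a listed peak, and GAPDH was not covered in either. Of 10 genes of other tissues, among them ALB and INS, 2 had a listed peak in each line and 0 had one over the start. The widths of all listed peaks end sharply. In RS4;11 cells 983 peaks were between 3500 and 4000 bp wide, 465 between 4000 and 4500 bp and 0 wider, and in THP-1 cells the numbers were 899, 277 and 0. Peaks over a 5′ end were wide, with a median of 2627 bp in RS4;11 and 2452 bp in THP-1 cells, and 33.4% and 27.4% of the covered starts were under a peak of at least 3000 bp, against 12.8% and 9.91% of all peaks. Whether peaks wider than this limit were left out of the lists, and whether the starts described here were among them, was not tested.

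**Figure D4:**
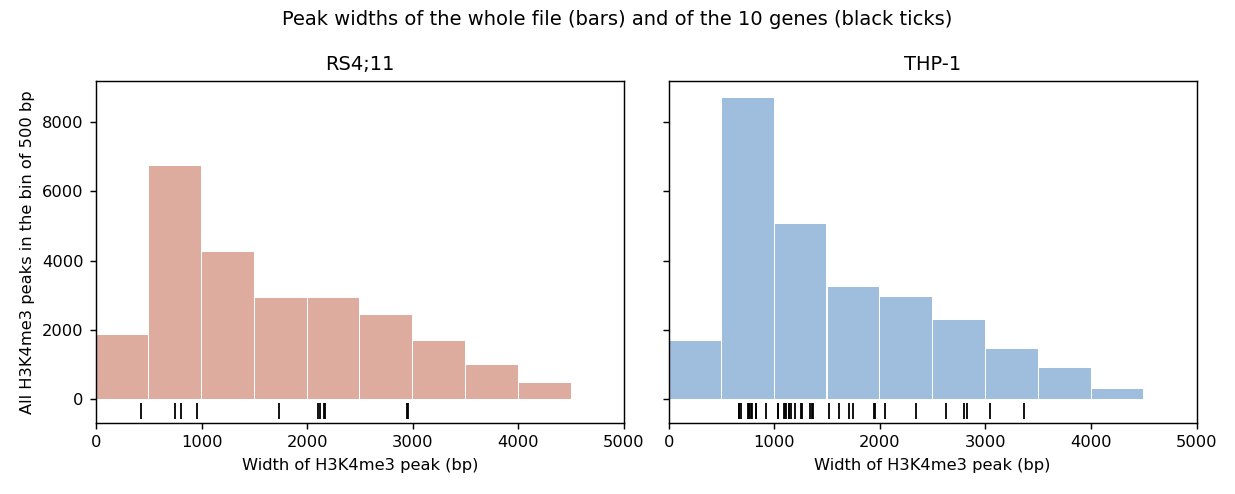
Widths of H3K4me3 peaks in bp (x axis) in RS4;11 cells (left) and THP-1 cells (right). Bars count all listed peaks in bins of 500 bp and black ticks mark the 11 and 38 peaks of the 10 genes, which reach 2956 and 3365 bp, while no bar stands beyond 4500 bp.

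The peaks these genes did have were mostly intronic. By the authors' flags, 1 of 11 peaks of RS4;11 cells overlapped an exon, 8 lay in an intron without an exon and 2 only in the 20 kb flanks, which is 9.09%, 72.7% and 18.2%, against 46.7%, 33.5% and 19.8% of all peaks. In THP-1 cells the numbers were 4, 26 and 8 of 38, which is 10.5%, 68.4% and 21.1%, against 47.4%, 30.2% and 22.4%. Peaks over an annotated start of any gene were 2 of 11 (18.2%, against 46.8% of all) and 7 of 38 (18.4%, against 48.6%). The 2 in RS4;11 cells are the EYA1 peak and the FAM133B peak downstream of CDK6. The widths were between 430 and 2956 bp in RS4;11 cells, with a median of 2107 bp, against 1391 bp over all peaks, and between 665 and 3365 bp in THP-1 cells, with a median of 1176 bp, against 1241 bp.

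The peaks of these genes were also poorer in GC and CpG than the lists as a whole. As given above, fewer of them lie over a start. They were set against all peaks and not against peaks away from starts, here and for the overlap between the lines. Whether these traits are separate from the few start peaks was not tested. The median GC content of the peaks of these genes was 39.8% in RS4;11 and 39.0% in THP-1 cells, where all H3K4me3 peaks had medians of 50.3% and 50.4%. The median ratio of observed to expected CpG was 0.242, against 0.391, and 0.255, against 0.470. A ratio over 0.6 was found for 2 of 11 peaks in RS4;11 cells, against 29.6% of all, and for 5 of 38 in THP-1 cells, against 34.7%. The 2 are the FAM133B peak at CDK6 (0.672) and the EYA1 peak (0.648). The 5 are the peaks at the starts of FLT3 (0.865), PBX3-DT (0.730), MEIS1 (0.729), FAM133B (0.686) and EYA1 (0.670), and each covers an annotated start.

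**Figure D5:**
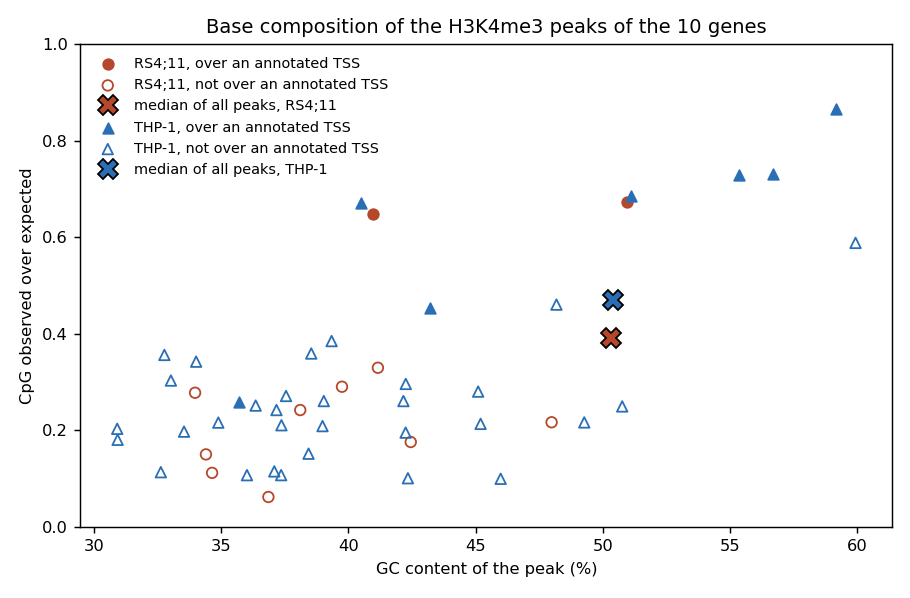
GC content (%, x axis) and ratio of observed to expected CpG (y axis) of each H3K4me3 peak of the 10 genes, with red circles for RS4;11 cells, blue triangles for THP-1 cells, filled symbols for peaks over an annotated start and crosses for the median of all peaks of a line. The peaks above a ratio of 0.6 are filled symbols, and most open symbols lie below the crosses in both measures.

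These genes are long, with lengths from 7518 to 394593 bp and a median of 171918 bp, against a median of 27217 bp over protein-coding genes. Among the 3664 genes of at least 100 kb the median was 2 peaks in each line, and the 7 members of that length had a median of 1 in RS4;11 and 3 in THP-1 cells. Of the long genes 20.3% had no peak in RS4;11 and 14.0% in THP-1 cells, and of the 7 members 2 and 0. A peak over the 5′ end was listed for 42.3% and 49.7% of the long genes, and for 0 of the 7 in both lines. The long genes as a whole were thus covered about as often as all genes. Per 100 kb of gene, FLT3 had 4.11 peaks in THP-1 cells, JMJD1C 3.10, CDK6 3.02, PBX3 2.27, MEIS1 1.42, ZEB2 1.28, MEF2C 1.07 and EYA1 0.760, with peaks in the flanks counted. MYC, the shortest gene, had all its peaks in the flanks and cannot be placed in this order.

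Another 12 targets of MLL fusions (RUNX1, RUNX2, PROM1, TAPT1, BCL2, MBNL1, CPEB2, LMO2, ARID1B, IGF2BP2, GFI1 and TCF4) are set beside these 10. All but TAPT1 and CPEB2 had an H3K4me3 peak in RS4;11 cells and all 12 had one in THP-1 cells, with 40 and 52 peaks and 69772 and 65884 bp in all. A peak over the 5′ end was found for 1 of the 12 (LMO2) in RS4;11 and 0 in THP-1 cells, against 45.7% and 48.5% of protein-coding genes. A peak over any annotated start was found for 3 in each line, against 53.4% and 59.2%. The starts were thus mostly uncovered here too, but the lines did not differ in 1 direction, on few genes. At least 2-fold more bases in THP-1 cells were found for 4 genes, against 19.2% of protein-coding genes with a peak in either line. They are RUNX2, a Runt factor (1025 and 6212 bp in RS4;11 and THP-1 cells), MBNL1, a splicing factor (719 and 3383 bp), TAPT1 (0 and 3241 bp) and CPEB2, an RNA-binding protein (0 and 3037 bp). At least 2-fold more in RS4;11 cells were found for 3, against 13% of those protein-coding genes. They are LMO2, a LIM-only adaptor of blood stem cells (9171 and 1027 bp), PROM1, which encodes CD133 (5772 and 2328 bp), and GFI1, a zinc finger repressor (2475 and 697 bp). None of the 12 had a WDR5 peak in either line, where 4.02% of protein-coding genes had one in RS4;11 and 1.35% in THP-1 cells.

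The identity of the lines was checked with marker genes. Of 9 B-cell precursor genes, 7 had an H3K4me3 peak in each line, and the start was covered for 3 in RS4;11 and 4 in THP-1 cells. CD79A and CD79B were covered in RS4;11 cells only and PAX5, EBF1 and BLNK in THP-1 cells only. Of 10 myeloid genes, all had a peak in both lines, and the start was covered for 4 in RS4;11 and 7 in THP-1 cells, with ITGAM, S100A9 and TLR2 covered in THP-1 cells only. By bases under peaks, 4 of the 9 B-cell precursor genes had at least 2-fold more in RS4;11 and 2 in THP-1 cells, and 3 of the 10 myeloid genes had at least 2-fold more in THP-1 cells and 0 in RS4;11 cells. Of protein-coding genes with a peak in either line, 13% had at least 2-fold more in RS4;11 and 19.2% in THP-1 cells. The bases thus leaned the way of the line names, on few genes, and the counts for THP-1 cells were near the share of all genes. The covered starts of B-cell precursor genes were mixed. Every direction given here between the lines rests on the line names in the labels of the H3K4me3 samples, which these few genes check only weakly.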

How the data were processed

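The 4 samples, 1 per group, were placed in groups by the names of the line and of the antibody that the labels give. According to the study's methods, chromatin was sonicated for WDR5 and cut with micrococcal nuclease for H3K4me3, while the labels name sonication for all samples. Reads were mapped to hg19 and peaks were called with MACS. Neither the version of MACS nor an input control is given in the sources used here. The submitters' processing notes name CASAVA 1.7 and 1.8.2. The deposited files give peak positions, on 1 line for each transcript near a peak, and whether the peak lies in an exon, an intron or the flanks of 20 kb on either side, and a peak far from every transcript is not in them. They hold no signal, count or p-value.

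Lines were reduced to distinct peaks and taken by gene symbol. Start sites and gene models came from GENCODE release 44 mapped to GRCh37, and sequences were read from GRCh37. Of the symbols, 14772 matched a protein-coding gene directly, 1749 through an older name, and 2055 did not. Overlap meant 1 shared bp, and intervals are exact binomial ones at 95%. Expected CpG is the product of the numbers of C and G divided by the length. Python 3.11.15, numpy 2.4.6, scipy 1.17.1, pysam 0.24.0 and matplotlib 3.10.9 were used, and the interval functions were tested on simulated data. Of the other MLL fusion targets, those with at least a 2-fold difference in bases, or with the start covered in 1 line only, are named, and other lists are given as counts with examples. The genes and lists were chosen with earlier results of these data known. Alternatives changed the assignment of peaks, the widths and numbers used, the start site and the overlap. One marker gene of the B-cell list is not reported here, and it is in none of the counts.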

Additional observations from a re-analysis of the deposited data

How the results depend on the processing

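Without replicates, depths or peak heights, no value here has an error between cultures, and a stricter peak threshold could only be imitated by width. Of 66 alternative values of the counts and shares over all 10 genes, 61 stayed within 1.5 times the count, or within the interval of the share, and none reversed. Some of these could not change, so the number overstates the stability. Removing or joining peaks leaves a count of 0 at 0. Taking the same number of widest peaks in each line keeps every peak of RS4;11 cells, whose list is the shorter. No alternative gave any gene 2-fold more bases in RS4;11 cells. The count of genes with a peak over the start depended on how a start was defined. With any annotated transcript it was 1 in RS4;11 and 4 in THP-1 cells, with a peak within 1 kb it was 3 in THP-1 cells, and with the authors' upstream and exon flags, an alternative chosen after seeing the data, it was 1 and 3. With peaks flagged exon or intron only, the differences at ZEB2 and MYC became 0, as did that at MYC with peaks that overlap the gene body. The MYC peaks lie in the flanks, while those of ZEB2 are downstream by the authors' flags only. Genes with 2-fold more bases in THP-1 cells went from 7 to 5 and 6 under these settings. No paired analysis was possible because each group holds 1 sample and no test was made.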
